A study of Mus musculus with 300 samples.

Results

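Hearts of mice given WY14643 were set directly against hearts of mice given rosiglitazone. Both compounds were given by mouth at 10 mg/kg, and 5 mice per compound were sampled on each of days 4, 8 and 15. The comparison holds 15 WY14643 hearts and 15 rosiglitazone hearts, chosen by the tissue, compound and dose in the labels, which is 30 of the 75 heart arrays and 30 of all 300 arrays. The series measured heart, kidney, liver and skeletal muscle of 75 mice given WY14643, GW501516, rosiglitazone or vehicle, with 1 Affymetrix Mouse Genome 430 2.0 array per tissue of a mouse. All 75 hearts, with the 30 vehicle hearts, 10 on each day, and the 15 GW501516 hearts, share 1 estimate of the spread and so bear on the standard errors and calls. Vehicle levels and each compound's own difference from vehicle are quoted as well. The labels used here give no strain, sex, age, genotype or hour of collection, so an hour that differed between the compounds cannot be told apart from the compound. Each array is a mouse of its own number, so the p-values measure the spread between mice.

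WY14643 is an arylthioacetic acid of the fibrate type that activates the peroxisome proliferator-activated receptor PPARα, and rosiglitazone is a thiazolidinedione that activates PPARγ. Both receptors bind the same kind of response element as partners of the retinoid X receptor and switch on genes of lipid handling. The adult heart draws most of its energy from fatty acids. PPARα is a form that cardiac muscle cells use to set the level of fatty acid oxidation enzymes, while PPARγ is best known from fat cells, where it drives storage of triglyceride. The comparison asks which heart genes differed between an agonist of the one receptor and an agonist of the other at the same dose.

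The hearts carried the markers of their label. The mean of 12 cardiomyocyte markers ran from 14.22 to 14.52 in WY14643 hearts, from 14.17 to 14.51 in rosiglitazone hearts and from 14.14 to 14.52 in vehicle hearts, on the log2 intensity scale that all levels below use. The mean of 21 hepatocyte markers, genes made mainly by liver, varied widely in every group, from 5.87 to 11.4 with WY14643, from 6.25 to 11.8 with rosiglitazone and from 5.83 to 11.7 with vehicle. Among the 30 arrays, 3 correlated least with the other hearts. Rosiglitazone day 4 replicate 1 had a median correlation of 0.961 with the other hearts and the highest adipocyte score, 12.4. WY14643 day 4 replicate 2 had a median correlation of 0.984 and the highest neutrophil score, 10.2. WY14643 day 15 replicate 4 came next with a median correlation of 0.985, and the other 27 had 0.9885 or more. All 3 arrays were kept. Counts of called genes without the first 2, or without the day 15 array, are given for some results. Values of single genes without them are not given. Of the 114 called genes named below, 9 lost the call without the first 2. RNA amounts from fewer cells of a type and from less RNA per cell cannot be told apart in these bulk samples.

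**Figure D1:**
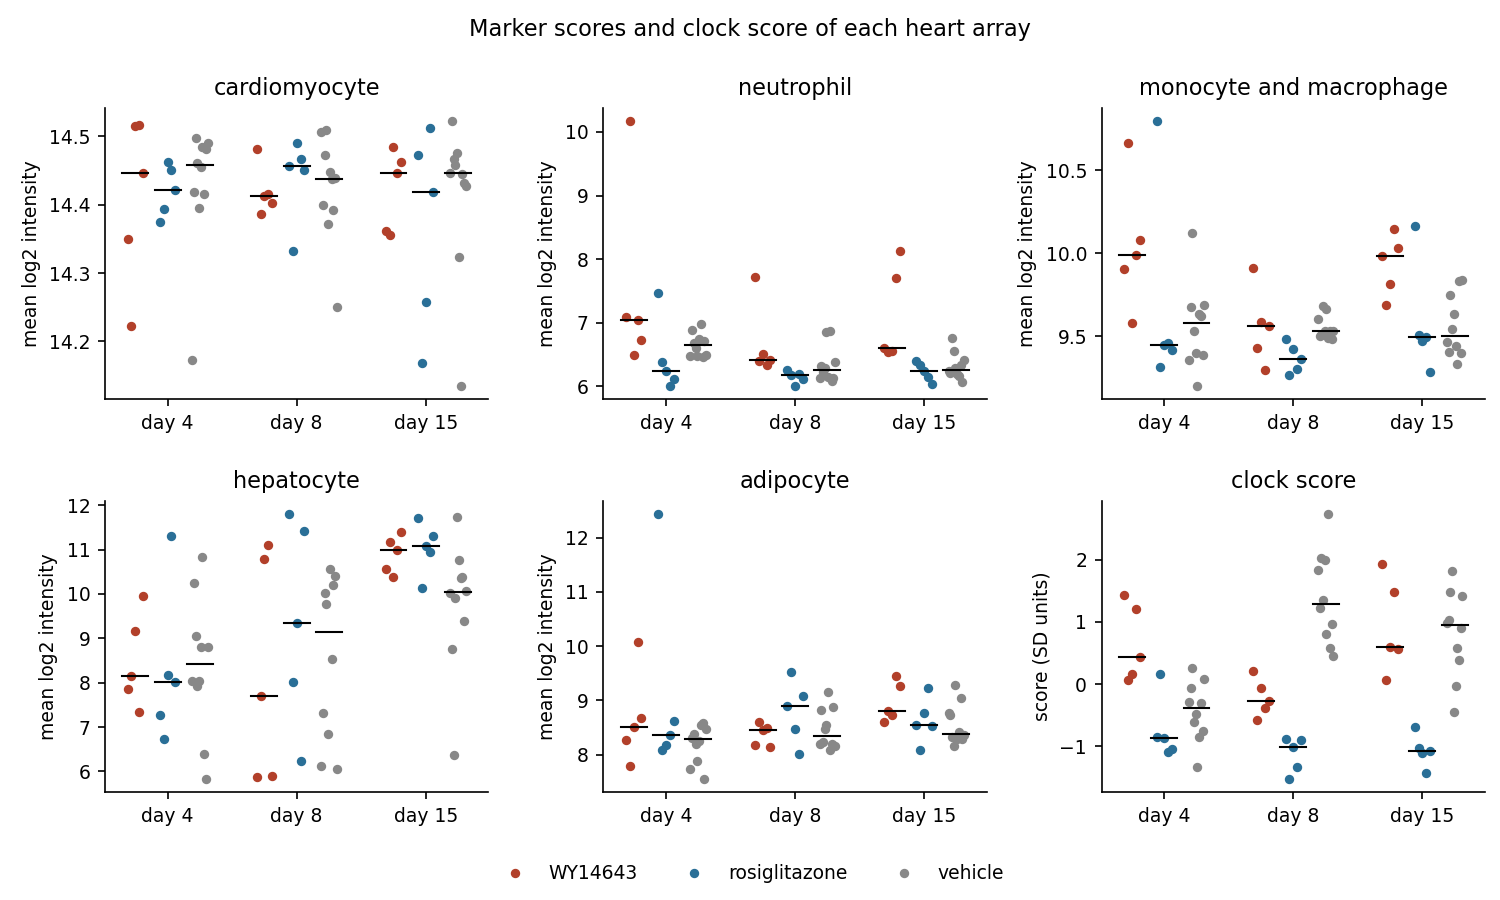
Scores of each heart array by day: the y axis is the mean log2 intensity of the markers of 5 cell types, or the clock score in SD units, with WY14643, rosiglitazone and vehicle from left to right, 1 point per array and a black line at the median. Cardiomyocyte scores overlapped within 14.14 to 14.52, hepatocyte scores spread from 5.83 to 11.8 in all 3 groups, and the highest neutrophil score, 10.2, belongs to 1 WY14643 heart of day 4.

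Averaged over the 3 days, 1114 of 18193 genes, 6.12%, differed between the compounds at an adjusted p under 0.05. The difference is the mean of the WY14643 hearts minus the mean of the rosiglitazone hearts of the same day, averaged over the days, so a positive value means a higher level with WY14643. WY14643 hearts were higher for 698 genes, 3.84%, and lower for 416, 2.29%. At least 1.5-fold, or 0.58 on the log2 scale, separated the compounds for 47 of the called genes, 0.258%, 33 of them higher and 14 lower with WY14643. With the 30 arrays alone in the fit 415 genes were called, and without WY14643 day 15 replicate 4 or replicate 1 the counts were 662 and 737. Of the 114 called genes named below 46 lost the call with the 30 arrays alone, among them Angptl4 (adjusted p = 0.0729) and Acot1 (adjusted p = 0.12), and 82 lost it without day 15. The median difference of all genes was 0.02 and lay closer to 0, at 0.01, after quantile normalization. The split of directions depended on the scaling: quantile normalization between the hearts gave 436 higher and 497 lower, and centring each heart on its median gave 494 higher and 422 lower. The genes named below are the 15 largest called differences in each direction and members of lists of pathways and cell types, and called list members outside the 4 largest of their list were named after their values were seen.

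**Figure D2:**
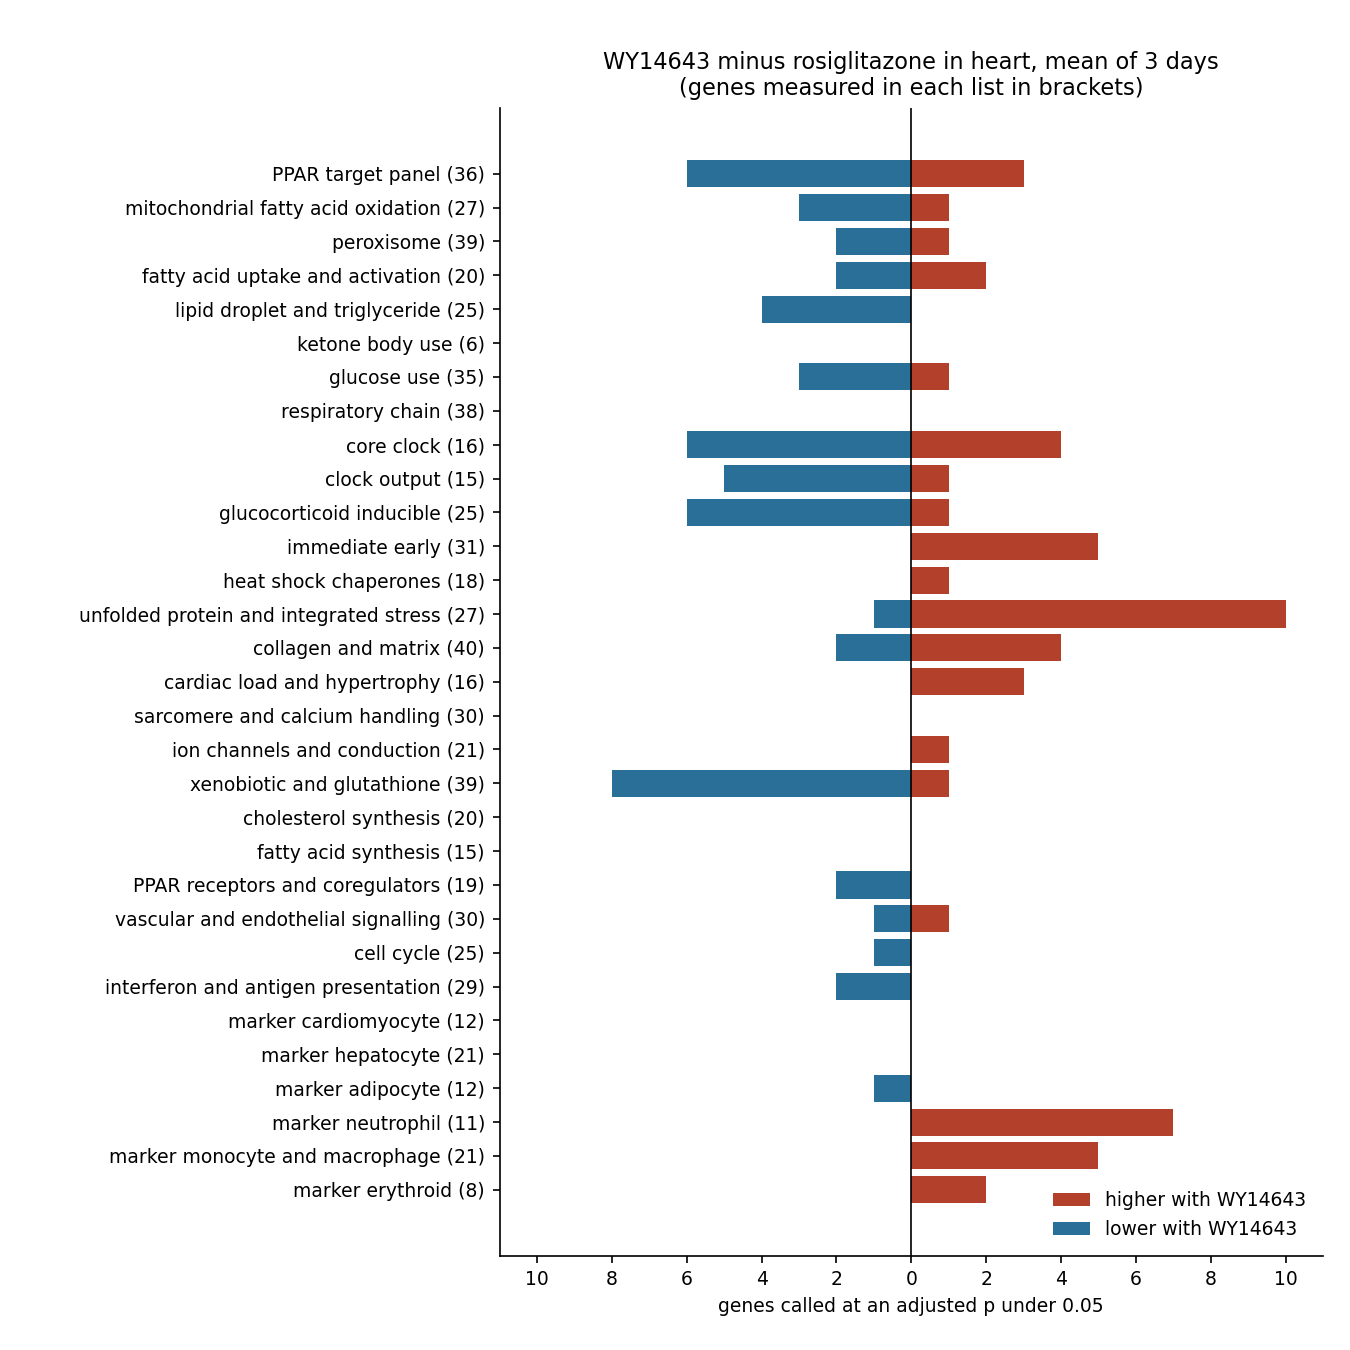
Genes of each list called at an adjusted p under 0.05 in the mean of the 3 days: bars to the right count genes higher with WY14643, bars to the left genes lower with WY14643, and the number measured is in brackets. The core clock list has 4 higher and 6 lower of 16, the unfolded protein list 10 higher and 1 lower of 27, and the sarcomere, respiratory chain and cholesterol lists have 0 of 30, 38 and 20. Of all genes 3.84% were higher and 2.29% lower.

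**Figure D3:**
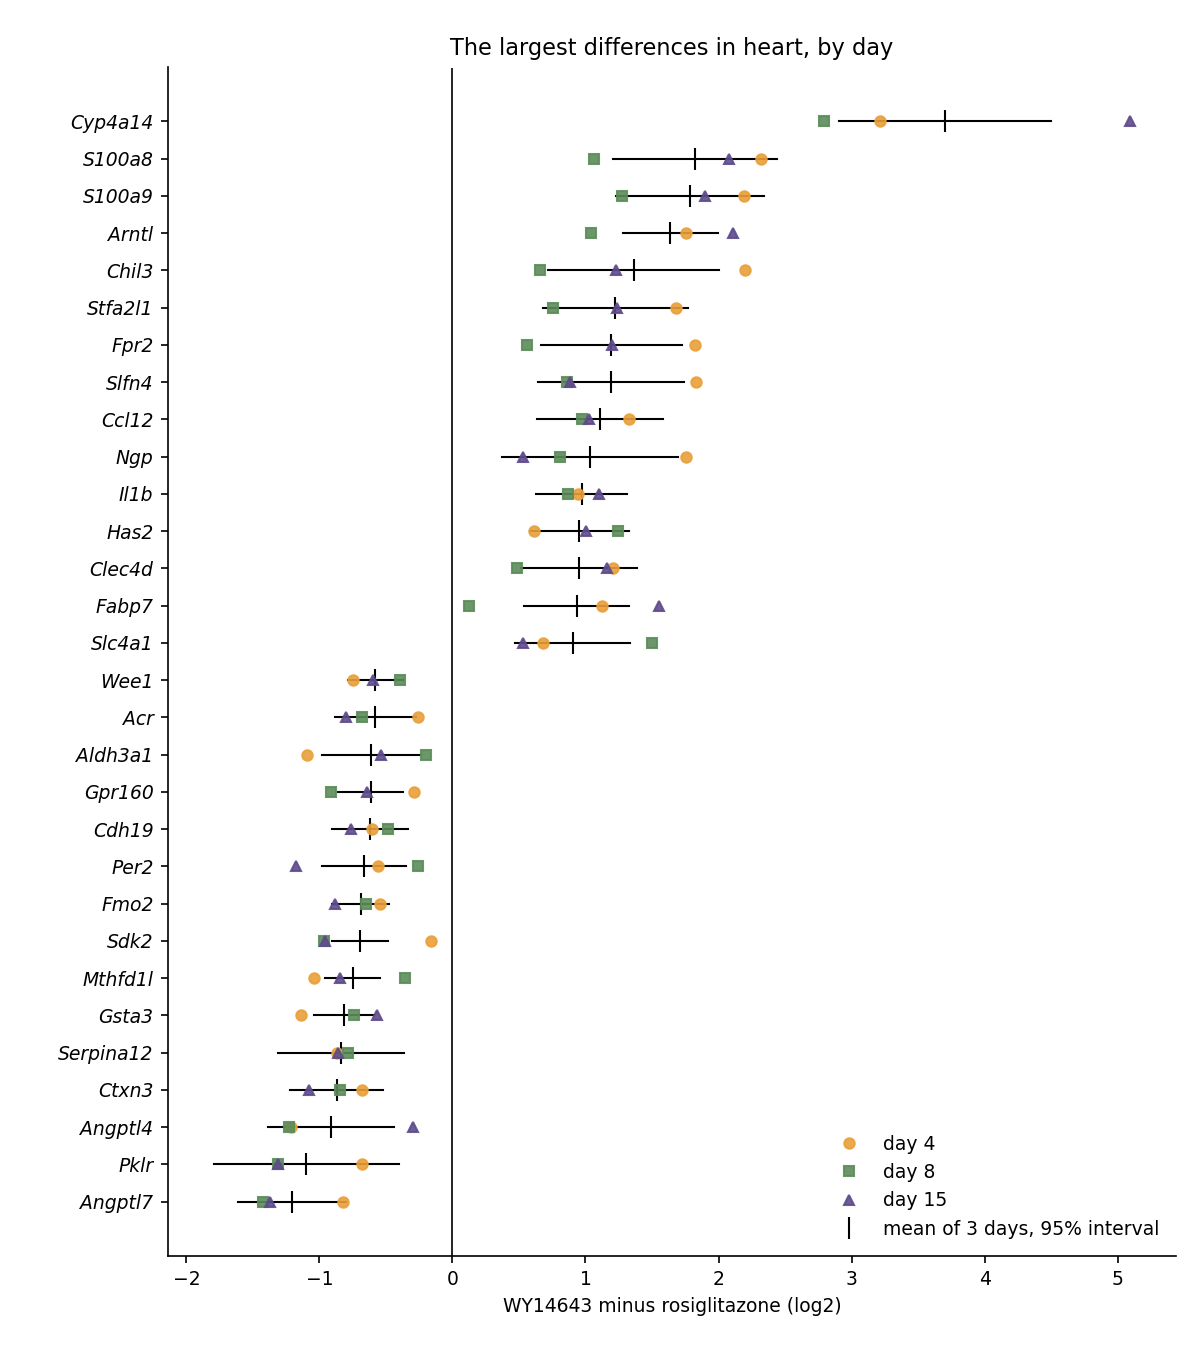
The 15 largest called differences in each direction: the x axis is WY14643 minus rosiglitazone on the log2 scale, with a coloured symbol per day, and a black mark with its 95% interval for the mean of the 3 days. Cyp4a14 stands farthest to the right at 3.70, and Angptl7 has the largest negative mean at -1.20.

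Among established targets of PPARs, a panel of 36 measured genes, 3 were called higher with WY14643 and 6 lower, where 3.84% of all genes were higher and 2.29% lower. The median difference of the panel was -0.01, against 0.02 over all genes. The 3 higher genes were Cyp4a14, a fatty acid ω-hydroxylase, and the acyl-CoA thioesterases Acot1 and Acot2. The 6 lower genes were Angptl4, Cpt1a, Plin4, Txnip, Pdk4 and Fabp4. The other 27, among them fatty acid carriers and the medium- and long-chain acyl-CoA dehydrogenases, were not called on the probe set used for the gene. The carrier Fabp3 and the dehydrogenases Acadl and Acadm were bright, with heart means of 14.72, 14.09 and 13.72. Fabp4, given below, had smaller differences on its brighter probe sets, and whether bright levels hid differences in these genes was not tested. Of those 27, Ucp3, a mitochondrial uncoupling protein of muscle, and Aqp7, a glycerol channel, were called lower on another probe set that is brighter in heart. For Ucp3 that probe set gave -0.93 ± 0.22, adjusted p = 0.00797 over all probe sets, against -0.47 ± 0.16, adjusted p = 0.0591, on the one used. For Aqp7 it gave -0.38 ± 0.11, adjusted p = 0.0237, against -0.01 ± 0.08 on the one used. Differences are given below with their standard errors.

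Cyp4a14 was the gene with the largest difference of all. It belongs to a family of near-identical genes, so signal of a neighbour such as Cyp4a10 or Cyp4a31 may reach its probe set. On day 4 Cyp4a14 read 6.12, 7.06, 9.18, 5.97 and 8.32 in WY14643 hearts, against 4.08, 4.00, 4.21, 4.18 and 4.09 in rosiglitazone hearts. On day 8 Cyp4a14 read 4.05, 6.83, 10.01, 10.22 and 5.66 in WY14643 hearts, against 4.08, 4.48, 4.27, 6.01 and 3.95 in rosiglitazone hearts. On day 15 Cyp4a14 read 9.52, 9.84, 8.15, 9.53 and 10.41 in WY14643 hearts, against 4.02, 4.05, 4.29, 5.39 and 4.22 in rosiglitazone hearts. The groups did not overlap on days 4 and 15. On day 8 only 3 of the 5 WY14643 hearts lay above all rosiglitazone hearts, and 1 lay at the level of vehicle, whose medians were 3.92, 4.14 and 3.99 on days 4, 8 and 15. Over the 3 days the difference was 3.70 ± 0.40, adjusted p = 2.19e-09. Set against vehicle, it was 4.03 ± 0.34 for WY14643, adjusted p = 1.73e-13, and 0.32 ± 0.34 for rosiglitazone, adjusted p = 0.632. Both of these differences use the same vehicle hearts.

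The level of Cyp4a14 in WY14643 hearts went with the hepatocyte markers of the same array. Across the 15 WY14643 hearts Pearson's r was 0.955, with a two-sided permutation p of 1e-05, the smallest that 100000 resamples can give, and 6e-05 adjusted over 12 relations. Spearman's rho was 0.964, with a permutation p of 1e-05 and 0.00012 adjusted, and Pearson's r without the 2 arrays farthest from the median hepatocyte score was 0.939. The hearts with Cyp4a14 at 4.05 and 5.66 on day 8 had hepatocyte scores of 5.87 and 5.90, and those with 10.01 and 10.22 had scores of 10.8 and 11.1. With the mean of each day taken off and arrays shuffled within days, r was 0.947, permutation p = 0.00018 and 0.00216 adjusted, rho of the ranks within days was 0.967, permutation p = 2e-05, and leaving out the 2 farthest arrays gave r = 0.905. Across the 15 rosiglitazone hearts r was -0.307 with a permutation p of 0.305, rho was -0.275 with a permutation p of 0.319, and leaving out the 2 farthest hearts gave r = 0.0341. Within days r was -0.536 there, permutation p = 0.0469 and 0.113 adjusted, with rho = -0.133. Rosiglitazone day 8 replicate 1 had a hepatocyte score of 11.8 with Cyp4a14 at 4.08. In liver of the same animals the Cyp4a14 difference was 4.95 ± 0.55. With the hepatocyte score as a covariate, 1 slope for all groups, the heart difference was 3.83. A single slope cannot take off a level that follows the score in WY14643 hearts but not in rosiglitazone hearts. The value of 3.83 therefore does not tell the part of liver RNA in this difference, which was not tested.

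Kidney tubule markers also moved in single arrays. WY14643 day 4 replicate 3 had a kidney tubule score of 8.86 and Cyp4a14 at 9.18, and rosiglitazone day 8 replicate 4 had a score of 7.78 and Cyp4a14 at 6.01. Elsewhere among the 15 hearts of each compound that score ran up to 6.10 with WY14643 and 5.32 with rosiglitazone. The hepatocyte score at these 2 arrays was 9.17 and 6.25. The rosiglitazone heart with the next highest Cyp4a14, 5.39, was day 15 replicate 4, with a kidney tubule score of 4.54.

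Acot1 and Acot2 split acyl-CoA into free fatty acid and coenzyme A, Acot1 in the cytosol and Acot2 in mitochondria. They are close relatives, so their probe sets may share signal. On day 4 Acot1 read 7.54, 10.39, 8.14, 8.75 and 7.83 in WY14643 hearts, against 8.21, 7.67, 8.03, 7.74 and 7.91 in rosiglitazone hearts. On day 8 Acot1 read 8.09, 8.43, 8.14, 8.67 and 8.38 in WY14643 hearts, against 7.89, 8.63, 7.47, 8.02 and 7.46 in rosiglitazone hearts. On day 15 Acot1 read 9.02, 8.37, 8.00, 8.49 and 8.47 in WY14643 hearts, against 8.15, 7.80, 7.55, 7.79 and 8.11 in rosiglitazone hearts. The groups overlapped on every day, with 2, 1 and 4 of 5 WY14643 hearts above all rosiglitazone hearts on days 4, 8 and 15. The difference was 0.55 ± 0.17, adjusted p = 0.032, and leaving out 1 array at a time ended the call in 7 of 30 cases. The highest value, 10.39, came from WY14643 day 4 replicate 2, the array with the neutrophil score of 10.2. Acot2 differed by 0.13 ± 0.04, adjusted p = 0.0303. Neither compound's own difference from vehicle was called for these genes, with 0.31 ± 0.14 and -0.24 ± 0.14 for Acot1 under WY14643 and rosiglitazone. Their correlation with the hepatocyte score across the 15 WY14643 hearts was -0.0122 for Acot1, permutation p = 0.969, and -0.105 for Acot2, permutation p = 0.71. Spearman's rho was 0.179, permutation p = 0.524, and -0.0536, permutation p = 0.853, for the 2 genes. Without the 2 arrays farthest from the median score r was -0.151 and -0.0724. Within days r was -0.0464, permutation p = 0.844, and 0.209, permutation p = 0.224.

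Cpt1a, the outer-membrane carnitine palmitoyltransferase that admits long-chain fatty acids to mitochondria, was lower with WY14643 than with rosiglitazone. On day 4 Cpt1a read 9.77, 10.002, 9.91, 9.93 and 9.84 in WY14643 hearts, against 10.41, 10.01, 10.34, 10.32 and 10.52 in rosiglitazone hearts. On day 8 Cpt1a read 9.79, 9.92, 9.90, 10.01 and 9.75 in WY14643 hearts, against 10.16, 10.34, 10.23, 10.12 and 10.04 in rosiglitazone hearts. On day 15 Cpt1a read 9.77, 9.69, 9.83, 9.59 and 9.31 in WY14643 hearts, against 10.20, 10.02, 9.79, 10.11 and 9.60 in rosiglitazone hearts. The groups did not overlap on days 4 and 8 and overlapped on day 15. The difference was -0.35 ± 0.06, adjusted p = 0.000235. Against vehicle Cpt1a had -0.12 ± 0.05 with WY14643, adjusted p = 0.295, and 0.23 ± 0.05 with rosiglitazone, adjusted p = 0.00363. Slc22a5, the carnitine transporter, and Hadh, an enzyme of the β-oxidation spiral, were also lower, at -0.17 ± 0.04 and -0.05 ± 0.01. In all, 1 of 27 measured genes of mitochondrial fatty acid oxidation was called higher and 3 lower, with a median of 0.00. Of all genes 3.84% were higher and 2.29% lower.

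Angptl4, a secreted inhibitor of lipoprotein lipase that both PPARα and PPARγ can induce, was lower with WY14643. On day 4 Angptl4 read 8.45, 10.08, 8.03, 9.36 and 7.74 in WY14643 hearts, against 11.70, 8.89, 9.72, 9.62 and 9.80 in rosiglitazone hearts. On day 8 Angptl4 read 7.25, 7.17, 8.49, 8.58 and 6.97 in WY14643 hearts, against 8.66, 9.68, 9.32, 9.24 and 7.69 in rosiglitazone hearts. On day 15 Angptl4 read 8.85, 8.35, 8.11, 8.31 and 7.63 in WY14643 hearts, against 9.49, 8.67, 8.13, 8.43 and 8.00 in rosiglitazone hearts. The groups overlapped on each day, with 3, 3 and 1 of 5 WY14643 hearts below all rosiglitazone hearts. The difference was -0.91 ± 0.24, adjusted p = 0.0126, a mean of 8.22 ± 0.83 with WY14643 and 9.13 ± 0.98 with rosiglitazone (SD, n = 15 each). Against vehicle it was -0.05 ± 0.20 with WY14643, adjusted p = 0.947, and 0.86 ± 0.20 with rosiglitazone, adjusted p = 0.00306. The mean of WY14643 joins days of opposite sign, 0.67 ± 0.35, -0.63 ± 0.35 and -0.21 ± 0.35 on days 4, 8 and 15, none of them called. With rosiglitazone the days had 1.89 ± 0.35, 0.60 ± 0.35 and 0.09 ± 0.35, and the first was called, adjusted p = 0.00429. The day 4 mean of rosiglitazone includes replicate 1, with Angptl4 at 11.70 against 8.89 to 9.80 in the other rosiglitazone hearts of that day. That array had the adipocyte score of 12.4, and it enters the difference between the compounds too. The day 4 difference from vehicle without it was not tested. Across the 15 rosiglitazone hearts Angptl4 had r = -0.559 with the hepatocyte score, permutation p = 0.0245 and 0.0491 adjusted, with rho = -0.525, permutation p = 0.0463 and 0.0926 adjusted, and r = -0.744 without the 2 arrays farthest from the median score. The relation did not hold within days, where r was -0.345, permutation p = 0.264. Across the 15 WY14643 hearts r was 0.229, permutation p = 0.413, rho was 0.246, permutation p = 0.374, leaving out 2 arrays in the same way gave r = -0.255, and within days r was 0.29, permutation p = 0.35. Of 25 genes of lipid droplets and triglyceride 4 were called lower and 0 higher, with a median of -0.01, against 2.29% and 3.84% of all genes. Plin4, a lipid droplet coat protein, differed by -0.29 ± 0.09, the triglyceride-forming enzymes Dgat2 and Gpam by -0.21 ± 0.03 and -0.16 ± 0.04, and the monoglyceride lipase Mgll by -0.24 ± 0.05.

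Fabp4, the fatty acid carrier of fat cells and of capillary endothelium, differed by -0.11 ± 0.02, adjusted p = 0.000724, on the brightest of its 4 probe sets, with a heart mean of 14.06. The other 3, with heart means of 13.87, 11.22 and 10.04, gave larger differences of -0.14 ± 0.02, -0.45 ± 0.07 and -0.53 ± 0.09, all called. Of 12 adipocyte markers it was the 1 that was called, and the adipocyte score had medians of 8.60 in WY14643 hearts, 8.55 in rosiglitazone hearts and 8.34 in vehicle hearts. Of 35 genes of glycolysis and glucose use 1 was called higher and 3 lower, with a median of 0.01, against 3.84% and 2.29% of all genes. Pdk4, which switches off pyruvate dehydrogenase, differed by -0.19 ± 0.06, and Pdp2, which switches it on, by -0.36 ± 0.07. The Pdk4 call, adjusted p = 0.046, ended in 19 of 30 cases when 1 array was left out. Txnip, a brake on glucose uptake, differed by -0.26 ± 0.06, and Ppp1r3c, which targets a phosphatase to glycogen, was higher by 0.20 ± 0.05.

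Peroxisomal genes, the family that PPARα agonists raise in rodent liver, counted 1 higher and 2 lower of 39 in the heart, close to the 3.84% and 2.29% of all genes. Pex13, a peroxin, was higher by 0.11 ± 0.03, but another of its probe sets was called the opposite way. The fatty acid transporter Abcd3 and the thioesterase Acot4 were lower, at -0.08 ± 0.03 and -0.38 ± 0.11. Ehhadh, the bifunctional enzyme of peroxisomal β-oxidation, had 9.34 ± 0.63 with WY14643 and 9.07 ± 0.58 with rosiglitazone (SD, n = 15 each), a difference of 0.27 ± 0.15, adjusted p = 0.292. The coactivator Ppargc1b and the acetyltransferase Ep300 were the 2 genes called among 19 receptors and coregulators, both lower with WY14643, by -0.23 ± 0.07 and -0.15 ± 0.04. In the respiratory chain 0 of 38 genes were called by limma and 5 had an unadjusted p under 0.05, with differences from -0.03 to 0.06. Ndufs4 and Cox8b of this list had heart means of 13.50 and 13.70. Whether differences at such bright levels are read in full was not tested.

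**Figure D4:**
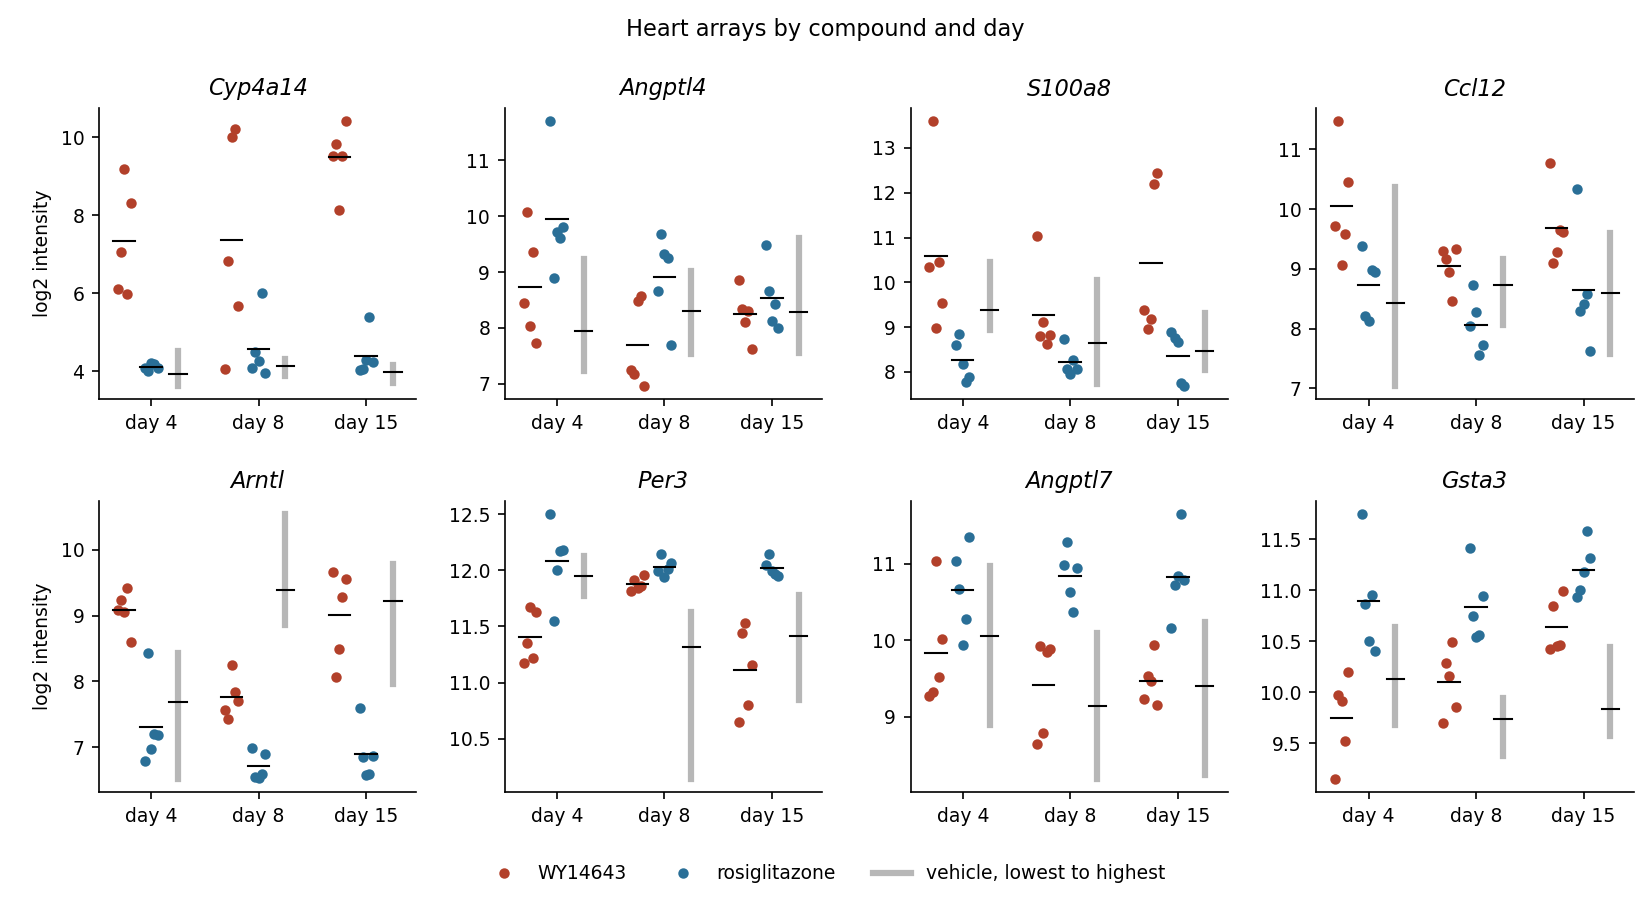
Log2 intensity of 8 genes in each heart array by day: WY14643 points on the left, rosiglitazone points in the middle and a bar from the lowest to the highest vehicle heart on the right, with black lines at the mean of each compound and the median of vehicle. Cyp4a14 with WY14643 ran from 4.05 to 10.41 and with rosiglitazone from 3.95 to 6.01, and the Arntl points of the compounds did not overlap on any day.

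Of 11 measured neutrophil markers 7 were called higher with WY14643 than with rosiglitazone and 0 lower, where 3.84% of all genes were higher. The median difference of the 11 was 0.65, and of 21 monocyte and macrophage markers 5 were called higher and 0 lower, with a median of 0.23. S100a8 and S100a9 code for the subunits of calprotectin, the most abundant cytosolic protein of neutrophils. On day 4 S100a8 read 10.34, 13.59, 8.98, 10.45 and 9.55 in WY14643 hearts, against 8.61, 8.85, 8.18, 7.79 and 7.89 in rosiglitazone hearts. On day 8 S100a8 read 11.04, 8.80, 9.11, 8.62 and 8.84 in WY14643 hearts, against 8.75, 8.06, 7.96, 8.27 and 8.07 in rosiglitazone hearts. On day 15 S100a8 read 9.39, 8.96, 9.17, 12.19 and 12.43 in WY14643 hearts, against 8.89, 8.76, 8.67, 7.75 and 7.69 in rosiglitazone hearts. The groups did not overlap on days 4 and 15, and on day 8, 4 of 5 WY14643 hearts lay above all rosiglitazone hearts. The highest value, 13.59, came from WY14643 day 4 replicate 2, 1 of the arrays that correlated least with the other hearts. S100a8 differed by 1.82 ± 0.31, adjusted p = 7.95e-05, and S100a9 by 1.79 ± 0.28, adjusted p = 1.6e-05. For S100a9 the groups did not overlap on any of the 3 days. Against vehicle S100a8 had 1.20 ± 0.27 with WY14643, adjusted p = 0.00844, and -0.62 ± 0.27 with rosiglitazone, adjusted p = 0.156. S100a9 had 1.02 ± 0.24 with WY14643, adjusted p = 0.0152, and -0.77 ± 0.24 with rosiglitazone, adjusted p = 0.0357.

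The gelatinase Mmp9, the collagenase Mmp8 and the granule protein Ngp differed by 0.85 ± 0.18, 0.83 ± 0.23 and 1.03 ± 0.33, and the receptors Cxcr2 and Csf3r by 0.57 ± 0.13 and 0.53 ± 0.11. The Ngp call, adjusted p = 0.0472, ended in 20 of 30 cases when 1 array was left out. Among the 15 largest differences were Chil3, a chitinase-like protein of myeloid cells, 1.36 ± 0.32, the formyl peptide receptor Fpr2, 1.19 ± 0.26, the stefin Stfa2l1, 1.22 ± 0.27, Slfn4, 1.19 ± 0.27, and the lectin Clec4d, 0.95 ± 0.22. All 11 neutrophil markers measured, called or not, had positive differences, from 0.10 to 1.82.

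The chemokine Ccl12 attracts monocytes. On day 4 Ccl12 read 9.71, 11.47, 9.06, 9.58 and 10.45 in WY14643 hearts, against 9.38, 8.21, 8.12, 8.99 and 8.94 in rosiglitazone hearts. On day 8 Ccl12 read 9.30, 9.16, 8.96, 8.46 and 9.34 in WY14643 hearts, against 8.04, 8.73, 8.29, 7.56 and 7.72 in rosiglitazone hearts. On day 15 Ccl12 read 10.78, 9.09, 9.28, 9.65 and 9.62 in WY14643 hearts, against 10.34, 8.30, 8.42, 8.58 and 7.63 in rosiglitazone hearts. The groups overlapped on each day, with 4, 4 and 1 of 5 WY14643 hearts above all rosiglitazone hearts. The difference was 1.11 ± 0.24, adjusted p = 0.00195. The neighbouring chemokines Ccl2 and Ccl7 differed by 0.67 ± 0.11 and 0.89 ± 0.15, the cytokine Il1b by 0.97 ± 0.17, Ccl9 by 0.46 ± 0.12 and the Fc receptor Fcgr1 by 0.43 ± 0.12. Il1b had 0.26 ± 0.15 against vehicle with WY14643, adjusted p = 0.45, and -0.71 ± 0.15 with rosiglitazone, adjusted p = 0.000615. By day the WY14643 values were -0.02 ± 0.26, -0.27 ± 0.26 and 1.07 ± 0.26 on days 4, 8 and 15, and the last was called, adjusted p = 0.016. The differences of the 21 markers ran from -0.10 to 1.11, and 19 were positive.

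The neutrophil score had a median of 6.61 in WY14643 hearts, 6.20 in rosiglitazone hearts and 6.40 in vehicle hearts, and its range was 6.33 to 10.2, 6.01 to 7.46 and 6.07 to 6.98. The monocyte and macrophage score had medians of 9.90, 9.45 and 9.53 in the same order. Without the 2 day 4 arrays that correlated least with the other hearts, 6 of the 11 neutrophil markers and 14 of the 21 monocyte and macrophage markers were called higher. Without day 15, and with the 30 arrays alone in the fit, 3 neutrophil markers were called. With the neutrophil score, which holds both of them, as a covariate S100a8 and S100a9 had 0.61 and 0.76, and were still called, and so were Ccl12, Ccl2, Ccl7 and Il1b at 0.78, 0.49, 0.57 and 0.51. The red cell genes Slc4a1, the anion exchanger of the membrane, and Alas2, the first enzyme of haem synthesis in red cells, were higher by 0.90 ± 0.22 and 0.40 ± 0.11. They were 2 of 8 erythroid markers, where 3.84% of all genes were higher. The erythroid score ran from 9.29 to 9.93 with WY14643, from 9.08 to 9.51 with rosiglitazone and from 9.12 to 9.84 with vehicle. Whether blood left in the hearts had a part in these differences was not tested. Interferon and antigen presentation genes counted 0 higher and 2 lower of 29, where 3.84% of all genes were higher and 2.29% lower. The 2 were the GTPases Gbp2 and Gbp3 with -0.35 ± 0.10 and -0.53 ± 0.17. The Gbp3 call ended in 19 of 30 cases when 1 array was left out.

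Core clock genes were called in both directions. The activators CLOCK and ARNTL switch on the Per and Cry genes, whose products shut the activators off. REV-ERB proteins, from Nr1d1 and Nr1d2, and ROR proteins compete at ROR elements to lower or raise Arntl. DBP, TEF and HLF act on D-boxes. Of 16 measured core clock genes 4 were called higher with WY14643 and 6 lower, and of 15 output genes 1 higher and 5 lower. Of all genes 3.84% were higher and 2.29% lower.

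Promoter windows of called clock genes are shown because they hold the letters of these elements, in capitals: a ROR element (AGGTCA directly preceded by AANT), a D-box (TTANGTAA) or an E-box (CACGTG). Each window runs 5′ to 3′ from 250 bases before to 50 bases after the start of a RefSeq transcript on GRCm38.p6.
Arntl, ROR element, chr7:113207261-113207560, plus strand: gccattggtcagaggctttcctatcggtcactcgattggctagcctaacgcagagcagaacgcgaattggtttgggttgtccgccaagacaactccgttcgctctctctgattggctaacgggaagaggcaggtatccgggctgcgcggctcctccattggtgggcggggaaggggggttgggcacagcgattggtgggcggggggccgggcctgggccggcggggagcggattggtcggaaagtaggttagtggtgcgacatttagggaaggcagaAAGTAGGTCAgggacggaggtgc
Leo1, ROR element, chr9:75441274-75441573, plus strand: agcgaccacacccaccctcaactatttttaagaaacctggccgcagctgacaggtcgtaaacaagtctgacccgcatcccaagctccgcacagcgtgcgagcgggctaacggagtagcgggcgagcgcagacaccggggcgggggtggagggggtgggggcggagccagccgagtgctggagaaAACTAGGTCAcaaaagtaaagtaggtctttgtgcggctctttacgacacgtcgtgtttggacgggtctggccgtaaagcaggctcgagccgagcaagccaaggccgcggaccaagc
Per3, D-boxes, chr4:151044616-151044915, minus strand: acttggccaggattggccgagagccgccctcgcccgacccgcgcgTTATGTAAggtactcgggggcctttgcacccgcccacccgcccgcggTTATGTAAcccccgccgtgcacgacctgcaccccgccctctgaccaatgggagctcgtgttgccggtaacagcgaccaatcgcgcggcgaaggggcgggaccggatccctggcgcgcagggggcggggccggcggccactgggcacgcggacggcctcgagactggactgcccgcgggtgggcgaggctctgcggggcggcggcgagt
Tef, E-box, chr15:81802423-81802722, plus strand: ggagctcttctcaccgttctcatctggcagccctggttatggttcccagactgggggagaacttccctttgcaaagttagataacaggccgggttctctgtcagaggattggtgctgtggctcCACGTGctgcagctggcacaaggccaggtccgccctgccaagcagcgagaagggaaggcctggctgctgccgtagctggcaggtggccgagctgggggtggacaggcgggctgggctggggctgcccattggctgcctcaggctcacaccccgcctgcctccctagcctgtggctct
Cry1, E-box, chr10:85185005-85185304, minus strand: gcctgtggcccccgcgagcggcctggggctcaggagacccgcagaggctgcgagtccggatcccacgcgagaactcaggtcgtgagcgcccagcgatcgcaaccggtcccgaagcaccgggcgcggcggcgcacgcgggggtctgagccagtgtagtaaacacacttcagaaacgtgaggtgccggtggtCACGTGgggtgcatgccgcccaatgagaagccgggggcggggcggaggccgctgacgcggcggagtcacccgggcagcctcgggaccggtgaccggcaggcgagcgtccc

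The ROR element of Arntl lies 27 to 36 bases after the start, and that of Leo1 at -66 to -57 from the start. Per3 holds 2 D-boxes, at -205 to -198 and -158 to -151. The E-box of Tef lies at -127 to -122 and that of Cry1 at -60 to -55. Both strands were searched. Of all 32851 promoter windows of this length in the table, 0.219% held a ROR element, 2.32% a D-box and 7.15% an E-box. Among the called clock genes with an entry, a ROR element stood in 2 of the 4 that were higher with WY14643 and 0 of the 9 that were lower. An E-box stood in 0 of the 4 higher and 3 of the 9 lower, and a D-box in 0 of the 4 higher and 1 of the 9 lower. A match is a run of letters and does not show binding.

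Arntl was the clock gene that differed most. On day 4 Arntl read 9.08, 9.23, 9.06, 9.41 and 8.60 in WY14643 hearts, against 6.79, 8.42, 6.98, 7.20 and 7.19 in rosiglitazone hearts. On day 8 Arntl read 7.57, 7.44, 8.25, 7.84 and 7.70 in WY14643 hearts, against 6.99, 6.55, 6.53, 6.60 and 6.90 in rosiglitazone hearts. On day 15 Arntl read 9.66, 8.07, 8.499, 9.27 and 9.56 in WY14643 hearts, against 7.60, 6.86, 6.58, 6.60 and 6.88 in rosiglitazone hearts. On none of the 3 days did the WY14643 and rosiglitazone hearts overlap for Arntl. The difference was 1.64 ± 0.18, adjusted p = 2.23e-09. Vehicle hearts had medians of 7.69, 9.39 and 9.22 on days 4, 8 and 15, so the vehicle level itself moved between days. Against vehicle the mean of the 3 days was -0.08 ± 0.16 with WY14643, adjusted p = 0.892, and -1.71 ± 0.16 with rosiglitazone, adjusted p = 1.01e-12. The mean of WY14643 near 0 joins days of opposite sign. WY14643 minus vehicle was 1.43 ± 0.27 on day 4, adjusted p = 0.00417, -1.69 ± 0.27 on day 8, adjusted p = 0.00025, and 0.03 ± 0.27 on day 15, adjusted p = 0.972. With rosiglitazone the same days had -0.33 ± 0.27, -2.74 ± 0.27 and -2.08 ± 0.27, of which the last 2 were called. Its partner Clock was higher by 0.22 ± 0.04, the repressor Nr1d1 by 0.64 ± 0.10 and the E-box repressor Bhlhe40 by 0.27 ± 0.07.

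Per3, a period gene of the negative limb, was lower with WY14643. On day 4 Per3 read 11.17, 11.35, 11.67, 11.22 and 11.63 in WY14643 hearts, against 12.50, 11.55, 11.9998, 12.17 and 12.18 in rosiglitazone hearts. On day 8 Per3 read 11.82, 11.91, 11.84, 11.86 and 11.96 in WY14643 hearts, against 11.99, 12.14, 11.94, 12.01 and 12.07 in rosiglitazone hearts. On day 15 Per3 read 10.65, 11.44, 11.53, 10.80 and 11.15 in WY14643 hearts, against 12.05, 12.15, 11.995, 11.97 and 11.95 in rosiglitazone hearts. No overlap was seen on day 15, and 3 and 4 of 5 WY14643 hearts lay below all rosiglitazone hearts on days 4 and 8. The difference was -0.58 ± 0.09, adjusted p = 3.77e-05. Per2 differed by -0.66 ± 0.16, Cry1 by -0.38 ± 0.05, Cry2 by -0.27 ± 0.05, Nr1d2 by -0.14 ± 0.03 and the ROR gene Rora by -0.15 ± 0.05. Per1, with -0.25 ± 0.13, was not called, adjusted p = 0.258.

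Of the output genes, the PAR-domain factors Hlf and Tef were lower, at -0.52 ± 0.08 and -0.32 ± 0.06, and their relative Dbp had -0.26 ± 0.12, adjusted p = 0.168. Wee1, the kinase that holds cells before mitosis, was lower, at -0.58 ± 0.10, the deubiquitinase Usp2 at -0.18 ± 0.04 and the tetraspanin Tspan4 at -0.21 ± 0.07. Leo1, a subunit of the PAF1 transcription complex, was the output gene that was higher, by 0.37 ± 0.06. A clock score, the first principal component of the 16 core clock genes over the 75 heart arrays with 48.5% of their variance, had medians of 0.44, -0.26 and 0.59 on days 4, 8 and 15 with WY14643, and of -0.86, -1.005 and -1.08 with rosiglitazone. In vehicle hearts the medians were -0.39, 1.28 and 0.94. The score thus differed between vehicle days by more than between the 2 compounds on days 4 and 8. With 2 such components as covariates, which hold the clock genes themselves, 533 genes were called over the 3 days, 209 higher and 324 lower with WY14643. Of the 114 called genes named here 92 lost the call then, Cpt1a at -0.30, Ccl12 at 0.51, Angptl7 at -0.54, Gsta3 at -0.28, Rcan1 at 0.14 and Slc41a3 at 0.32. Cyp4a14, Acot1, S100a8, Sdf2l1 and Arntl were still called, at 4.19, 0.94, 1.68, 0.55 and 0.66.

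Against 3.84% higher and 2.29% lower of all genes, glucocorticoid-inducible genes counted 1 higher and 6 lower of 25. Those lower were Angptl4 and Pdk4, described above, Zbtb16, a zinc finger repressor, with -0.38 ± 0.10, Klf9 with -0.10 ± 0.03, the phosphoinositide kinase subunit Pik3r1 with -0.19 ± 0.05 and glutamine synthetase Glul with -0.16 ± 0.02. Cdkn1a, the cyclin-dependent kinase inhibitor p21, was higher by 0.73 ± 0.17. The median of the list was -0.10.

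Angptl7, a secreted angiopoietin-like protein, had the largest negative difference. On day 4 Angptl7 read 9.28, 9.33, 11.03, 9.52 and 10.01 in WY14643 hearts, against 11.04, 10.67, 9.93, 10.28 and 11.36 in rosiglitazone hearts. On day 8 Angptl7 read 8.64, 9.93, 8.79, 9.84 and 9.88 in WY14643 hearts, against 10.98, 11.28, 10.63, 10.37 and 10.94 in rosiglitazone hearts. On day 15 Angptl7 read 9.23, 9.53, 9.47, 9.94 and 9.15 in WY14643 hearts, against 10.16, 10.72, 10.84, 11.65 and 10.79 in rosiglitazone hearts. No overlap of the groups was seen on days 8 and 15, and on day 4, 3 of 5 WY14643 hearts lay below all rosiglitazone hearts. The difference was -1.20 ± 0.20, adjusted p = 7.61e-05. Against vehicle it was 0.15 ± 0.18 with WY14643, adjusted p = 0.792, and 1.35 ± 0.18 with rosiglitazone, adjusted p = 4.15e-08.

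Gsta3, a glutathione S-transferase of the alpha class whose members share sequence, was lower with WY14643. On day 4 Gsta3 read 9.15, 9.98, 9.92, 9.53 and 10.19 in WY14643 hearts, against 11.74, 10.86, 10.502, 10.95 and 10.40 in rosiglitazone hearts. On day 8 Gsta3 read 9.70, 10.28, 10.16, 10.49 and 9.86 in WY14643 hearts, against 11.41, 10.75, 10.54, 10.56 and 10.94 in rosiglitazone hearts. On day 15 Gsta3 read 10.43, 10.84, 10.45, 10.46 and 10.995 in WY14643 hearts, against 10.94, 10.9997, 11.17, 11.57 and 11.32 in rosiglitazone hearts. The groups did not overlap on days 4 and 8, and 4 of 5 WY14643 hearts lay below all rosiglitazone hearts on day 15. The difference was -0.81 ± 0.11, adjusted p = 1.39e-06, and against vehicle 0.22 ± 0.10 with WY14643, adjusted p = 0.293, and 1.03 ± 0.10 with rosiglitazone, adjusted p = 2.76e-12. WY14643 minus vehicle changed sign between days, with -0.41 ± 0.17, 0.38 ± 0.17 and 0.68 ± 0.17 on days 4, 8 and 15, of which the last was called, adjusted p = 0.0184. With rosiglitazone it was 0.73 ± 0.17, 1.12 ± 0.17 and 1.24 ± 0.17, called on each day.

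Of 39 measured genes of xenobiotic and glutathione metabolism 1 was called higher and 8 lower with WY14643, with a median of -0.06. Of all genes 3.84% were higher and 2.29% lower. The flavin monooxygenases Fmo2 and Fmo1 differed by -0.69 ± 0.11 and -0.33 ± 0.06, the transferases Gstt1 and Gstt2 by -0.35 ± 0.09 and -0.36 ± 0.08, and the epoxide hydrolase Ephx1 by -0.22 ± 0.05. Adh1 and Aldh1a1, which oxidise retinol and retinal, differed by -0.48 ± 0.14 and -0.47 ± 0.10. Gstm2 was higher by 0.13 ± 0.03. The aldehyde dehydrogenase Aldh3a1, outside this list, differed by -0.61 ± 0.19, and its call ended in 9 of 30 cases when 1 array was left out. With the clock components as covariates 1 gene of the list was called higher and 0 lower.

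The remaining genes among the 15 largest negative differences have varied roles. Ctxn3, a small membrane protein of the cortexin family, differed by -0.87 ± 0.18, and the mitochondrial folate enzyme Mthfd1l by -0.75 ± 0.10. The adhesion molecules Sdk2 and Cdh19 differed by -0.69 ± 0.11 and -0.62 ± 0.14, the orphan receptor Gpr160 by -0.62 ± 0.12 and the acrosomal protease Acr by -0.58 ± 0.15. Pklr, the pyruvate kinase of liver and red cells, and Serpina12, the adipokine vaspin, differed by -1.10 ± 0.35 and -0.84 ± 0.24. The other Pklr probe sets gave -0.03 ± 0.06 and 0.04 ± 0.05 and were not called. Their heart means were 6.95 and 6.73, against 7.13 for the probe set used, so the Pklr difference rests on that probe set alone. For Pklr r was 0.839 across the 15 WY14643 hearts, permutation p = 0.00012 and 0.00048 adjusted, and 0.922 across the 15 rosiglitazone hearts, permutation p = 1e-05 and 6e-05 adjusted. Its rho was 0.821 with WY14643, permutation p = 0.0003, and 0.889 with rosiglitazone, permutation p = 2e-05, and leaving out the 2 arrays farthest from the median score gave r = 0.857 and 0.925. For Serpina12 r was 0.575 with WY14643 and 0.814 with rosiglitazone, with permutation p of 0.023 and 0.00026, and 0.0491 and 0.00078 adjusted. Its rho was 0.614 and 0.871, with permutation p of 0.0166 and 5e-05, and leaving out 2 arrays in the same way gave r = 0.569 and 0.762. Within days r for Pklr was 0.787 with WY14643, permutation p = 0.0224 and 0.0671 adjusted, and 0.888 with rosiglitazone, permutation p = 0.00095 and 0.0048 adjusted. Within days r for Serpina12 was 0.318 with WY14643, permutation p = 0.148, so that relation did not hold, and 0.82 with rosiglitazone, permutation p = 0.0012 and 0.0048 adjusted. In liver of the same animals Serpina12 differed by -2.10 ± 0.23. The Pklr call ended in 18 of 30 cases when 1 array was left out. Of the 21 hepatocyte markers themselves 0 were called by limma and 0 had an unadjusted p under 0.05, with a median of -0.36.

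Genes of protein folding in the endoplasmic reticulum and of the integrated stress response were called higher with WY14643 more often than lower. In this list 10 of 27 genes were called higher and 1 lower, with a median of 0.11, against 3.84% and 2.29% of all genes. Sdf2l1 assists protein folding in the endoplasmic reticulum. On day 4 Sdf2l1 read 8.24, 8.77, 7.89, 8.56 and 8.65 in WY14643 hearts, against 8.49, 8.26, 7.95, 7.70 and 7.72 in rosiglitazone hearts. On day 8 Sdf2l1 read 8.55, 8.19, 8.00, 8.07 and 8.90 in WY14643 hearts, against 8.13, 7.71, 8.04, 8.10 and 7.95 in rosiglitazone hearts. On day 15 Sdf2l1 read 9.18, 9.35, 9.23, 9.14 and 8.97 in WY14643 hearts, against 8.58, 7.93, 8.15, 8.02 and 8.63 in rosiglitazone hearts. The groups were apart on day 15 and overlapped on days 4 and 8, when 3 of 5 WY14643 hearts lay above all rosiglitazone hearts. The difference was 0.56 ± 0.09, adjusted p = 2.16e-05, and against vehicle 0.45 ± 0.08 with WY14643, adjusted p = 0.000228, and -0.10 ± 0.08 with rosiglitazone, adjusted p = 0.472.

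The chaperone-associated genes Manf, Creld2, Pdia4, Pdia6 and Dnajb11 differed by 0.33 ± 0.07, 0.27 ± 0.06, 0.28 ± 0.07, 0.17 ± 0.04 and 0.11 ± 0.03. The transcription factors Xbp1 and Atf4 differed by 0.25 ± 0.06 and 0.16 ± 0.04, and Trib3 and Mthfd2, which lie downstream of ATF4, by 0.26 ± 0.07 and 0.39 ± 0.07. The lumenal chaperones Hspa5 and Hsp90b1 had differences of 0.05 ± 0.03 and 0.04 ± 0.04 and were not called. Herpud1, a membrane protein of the same response, was lower, at -0.20 ± 0.06, and its call ended in 21 of 30 cases when 1 array was left out. Without day 15, 1 gene of the list was called, and with the clock components as covariates 2 were called, all higher. Of 18 heat shock chaperones Hspb1 was called, at 0.27 ± 0.06.

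Rcan1, an inhibitor of calcineurin that calcineurin itself induces, belongs to the immediate early and load lists. On day 4 Rcan1 read 12.62, 12.31, 12.09, 12.16 and 12.37 in WY14643 hearts, against 11.24, 12.15, 11.85, 11.99 and 12.08 in rosiglitazone hearts. On day 8 Rcan1 read 12.23, 11.89, 12.27, 12.10 and 12.13 in WY14643 hearts, against 11.75, 11.65, 11.95, 11.78 and 11.96 in rosiglitazone hearts. On day 15 Rcan1 read 12.62, 12.26, 12.73, 12.54 and 12.48 in WY14643 hearts, against 11.97, 11.79, 11.77, 11.70 and 11.96 in rosiglitazone hearts. No overlap was seen on day 15, and 4 of 5 WY14643 hearts lay above all rosiglitazone hearts on days 4 and 8. The difference was 0.48 ± 0.07, adjusted p = 1.06e-05, and against vehicle 0.05 ± 0.06 with WY14643, adjusted p = 0.816, and -0.43 ± 0.06 with rosiglitazone, adjusted p = 5.59e-07. Here too the WY14643 mean joins days of opposite sign, 0.25 ± 0.11, -0.29 ± 0.11 and 0.18 ± 0.11 on days 4, 8 and 15, none of them called. With rosiglitazone the days had -0.20 ± 0.11, -0.59 ± 0.11 and -0.51 ± 0.11, of which the last 2 were called.

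Against 3.84% higher and 2.29% lower of all genes, immediate early genes counted 5 higher and 0 lower of 31, with a median of 0.12. Besides Rcan1 they were the phosphatase Dusp5, 0.41 ± 0.10, and the transcription factors Klf4, 0.25 ± 0.07, Maff, 0.31 ± 0.08, and Egr2, 0.49 ± 0.16, the last with a call that ended in 22 of 30 cases when 1 array was left out. Fos and Egr1, the best known of the group, had 0.43 ± 0.30 and 0.39 ± 0.15 and were not called. In the load and hypertrophy list the natriuretic peptide gene Nppb and Ddit4l were higher by 0.36 ± 0.11 and 0.39 ± 0.11, 3 of 16 with Rcan1. Among 40 matrix genes the protease Adamts4, the cross-linking enzyme Loxl1, the membrane-bound protease Mmp14 and the collagen chaperone Serpinh1 were higher, by 0.79 ± 0.21, 0.45 ± 0.12, 0.34 ± 0.10 and 0.25 ± 0.07. The protease inhibitor Timp3 and the collagen Col8a1 were lower, at -0.28 ± 0.06 and -0.36 ± 0.11, and the Col8a1 call ended in 21 of 30 cases when 1 array was left out. Has2, which makes hyaluronan, was among the 15 largest positive differences at 0.95 ± 0.19, as was Fabp7, a fatty acid carrier known from brain, at 0.93 ± 0.20. Outside these lists Ramp3, a receptor-modifying protein, was higher by 0.35 ± 0.10, the channel Kcnq1 by 0.18 ± 0.05, and the nucleotide reductase subunit Rrm2 was lower, at -0.26 ± 0.07. The dimmer Rrm2 probe sets gave -0.13 ± 0.07 and -4.6e-05 ± 0.06 and were not called, so the Rrm2 difference rests on the probe set used.

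Of 30 genes of the sarcomere and calcium handling 0 were called by limma, 5 had an unadjusted p under 0.05, and 27 had differences between -0.09 and 0.05. Myh6, the main heavy chain of the adult mouse heart, had -0.04 ± 0.01, adjusted p = 0.0807. The other 3 were the atrial genes Sln, Myl7 and Myl4, with differences of 1.04 ± 1.14, 0.99 ± 1.17 and 0.64 ± 0.83. Sln ranged from 4.21 to 13.29 in WY14643 hearts and from 3.87 to 13.36 in rosiglitazone hearts, so the spread within a group exceeded the difference. Myh6 and Tcap, also of this list, had heart means of 14.66 and 14.14, where Actc1 reached at most 14.84. Whether differences at such bright levels are read in full was not tested, so the absence of calls may not mean equal RNA. Cholesterol synthesis and fatty acid synthesis had 0 called by limma of 20 and of 15, with 7 and 3 at an unadjusted p under 0.05, and ketone body use had 0 of 6 by both criteria.

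The days differed in how many genes passed. On day 4, 73 genes were called, 0.401%, with 42 higher, 0.231%, and 31 lower, 0.170%, with WY14643. On day 8, 1 gene was called, 0.00550%, the adhesion molecule Sdk2 with -0.97, adjusted p = 0.0289, while 937 genes had an unadjusted p under 0.05. On day 15, 2357 genes were called, 13.0%, with 1350 higher, 7.42%, and 1007 lower, 5.54%, and 169 of them differed at least 1.5-fold, 0.929%. The day 15 count was 678 without WY14643 day 15 replicate 4, 1043 without replicate 1 and 3267 without replicate 5, and 85 with the clock components as covariates. The median difference of all genes on day 15 was 0.06, against 0.01 on days 4 and 8. On day 15, 8 of 27 genes of the unfolded protein list were called higher and 0 lower, and 6 of 39 of the peroxisome list higher and 0 lower. Cholesterol synthesis had 5 of 20 higher and 0 lower, and the sarcomere list 0 of 30 higher and 5 lower. Of all genes 7.42% were higher and 5.54% lower that day. These list counts were not repeated without single arrays or with the clock components. Leaving day 15 out of the mean left 81 called genes, against 1183 without day 4 and 827 without day 8.

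A direct test of day 15 minus day 4 called 30 genes, 0.165%, 4 of them, 0.0220%, with a more positive difference on day 15 and 26, 0.143%, with a more negative one. The largest were Prr3 with -1.42 ± 0.33, the splicing factor Nova2 with -1.35 ± 0.31, Hivep3 with -1.19 ± 0.26, Shroom2, an actin-binding protein, with -0.97 ± 0.16, the kinase Wnk2 with -0.90 ± 0.20 and the matrix protein Thbs2 with -0.87 ± 0.20. Fsip1 and the thioredoxin-like Txndc12 had 0.70 ± 0.16 and 0.51 ± 0.11. For the genes given by array above, the change between days was not called: Cyp4a14 had 1.88 ± 0.97, adjusted p = 0.327, and Arntl had 0.35 ± 0.44, adjusted p = 0.73. That count of 30 ran from 2 to 516 when 1 array was left out.

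The comparison was repeated in skeletal muscle and liver of the same animals, within each animal. A difference between heart and skeletal muscle was called for 8 genes, 0.0440%, with 6 more positive in heart, 0.0330%, and 2 more negative, 0.0110%, and 2368 genes had an unadjusted p under 0.05. At least 1.5-fold was reached by 4 of the 8, 0.0220%. Among the 8 was Slc41a3, a magnesium transporter family member. On day 4 Slc41a3 read 10.25, 9.70, 10.37, 10.36 and 10.38 in WY14643 hearts, against 8.66, 9.54, 9.47, 9.61 and 9.79 in rosiglitazone hearts. On day 8 Slc41a3 read 9.80, 10.07, 10.18, 10.19 and 9.43 in WY14643 hearts, against 9.36, 9.33, 9.27, 9.71 and 9.74 in rosiglitazone hearts. On day 15 Slc41a3 read 10.70, 10.28, 10.42, 10.54 and 9.98 in WY14643 hearts, against 9.64, 9.28, 9.53, 9.05 and 8.74 in rosiglitazone hearts. No overlap was seen on day 15, and 4 of 5 WY14643 hearts lay above all rosiglitazone hearts on days 4 and 8. Slc41a3 differed by 0.80 ± 0.10 in heart, adjusted p = 6.39e-08, and by -0.12 ± 0.18 in skeletal muscle, a difference between the tissues of 0.91 ± 0.17, adjusted p = 0.00928.

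Arntl differed by 0.67 ± 0.20 in skeletal muscle and by 1.40 ± 0.27 in liver. Its heart difference exceeded that of muscle by 0.96 ± 0.17, adjusted p = 0.0073, and that of liver by 0.24 ± 0.21, adjusted p = 0.564. Itgb6, an integrin subunit, Eepd1, the sterol carrier Stard3 and the nuclear receptor Esrra, which drives mitochondrial genes, had positive heart minus muscle differences of 1.03 ± 0.21, 0.51 ± 0.10, 0.43 ± 0.09 and 0.35 ± 0.07. The clock repressor Ciart and the myosin Myo6 had negative ones of -0.63 ± 0.13 and -0.34 ± 0.07. In heart itself Stard3 had 0.10, Ciart -0.53, and Itgb6 0.34 and 0.23 on its probe sets, none of them called over all probe sets. Eepd1 was called in heart, at 0.26 on its brighter probe set. Myo6 was called there at -0.18 and -0.28, but not on its dimmest probe set, at -0.06. Esrra itself differed by 0.10 ± 0.05 in heart, adjusted p = 0.23, and by -0.25 ± 0.08 in muscle, 2 values of opposite sign. With the 30 animals alone in the fit 0 genes were called between heart and muscle.

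Between heart and liver 2171 genes were called, 11.9%, with 1171 differences more positive in heart, 6.44%, and 1000 more negative, 5.50%. The 3 largest negative ones were Cyp4a31, a relative of Cyp4a14, with -3.01 ± 0.47, the cytochrome oxidase subunit Cox6b2 with -2.97 ± 0.34, and Mogat1, which forms diglyceride, with -2.94 ± 0.43. The 3 largest positive ones were the lipocalins Obp2a, 2.70 ± 0.54, and Ptgds, 2.19 ± 0.35, and the membrane protein Lrtm1, 1.58 ± 0.39. In heart itself none of these genes was called on any of its probe sets. Obp2a had -0.09 there, Cox6b2 0.16 and Mogat1 0.18. Across their probe sets Cyp4a31 had 0.19 and 0.22, Ptgds 0.002 and 0.03, and Lrtm1 0.11 and 0.27. These contrasts thus come mostly from the difference in liver. The fatty acid carrier Cd36 differed by 1.91 ± 0.20 in liver, and heart minus liver was -1.89 ± 0.20, adjusted p = 5.12e-11. The medium-chain acyl-CoA dehydrogenase Acadm differed by 0.42 ± 0.04 in liver, and heart minus liver was -0.42 ± 0.04, adjusted p = 2.86e-12. Ehhadh differed by 1.71 ± 0.06 in liver, and heart minus liver was -1.44 ± 0.17, adjusted p = 2.19e-09. Cyp4a14 differed by 4.95 ± 0.55 in liver, and the difference between the tissues was not called, at -1.25 ± 0.66, adjusted p = 0.244. Angptl4 differed by -0.91 ± 0.24 in heart and by -0.18 ± 0.14 in liver, a difference between the tissues of -0.73 ± 0.22, adjusted p = 0.0217. S100a8 and S100a9 differed by 1.68 ± 0.33 and 1.63 ± 0.31 in liver and by 1.34 ± 0.37 and 1.65 ± 0.38 in skeletal muscle, and neither tissue differed from heart at the threshold.

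**Figure D5:**
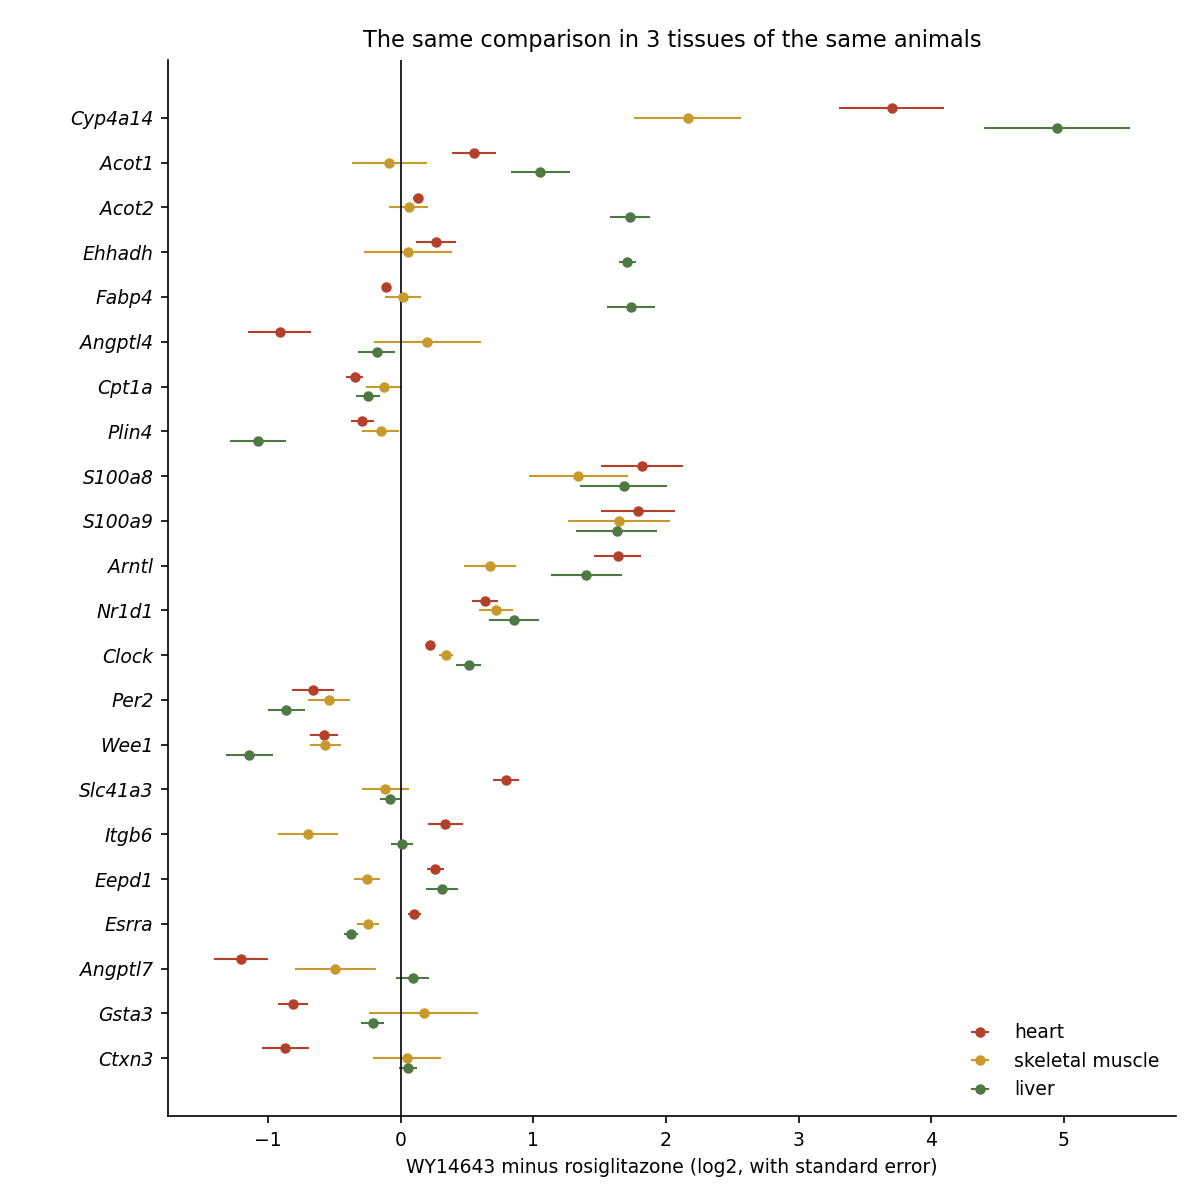
WY14643 minus rosiglitazone on the log2 scale in heart, skeletal muscle and liver of the same animals, 1 gene per line: points are means of the 3 days and bars are standard errors. Cyp4a14 was positive in all 3 tissues, at 3.70 in heart, and Slc41a3 had 0.80 in heart beside values near 0 in the other two.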

How the data were processed

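The deposited values are log2 intensities, made by the authors with RMA in Partek per the submitters' processing notes, which give no versions. Per the labels' protocols, 100 ng of total RNA was amplified with NuGEN reagents. The table has 45101 probe sets, of which 34945 name a single gene. Each of 18193 genes was read from its brightest probe set, taking the mean of all 300 arrays, and 9010 genes had more than 1 to choose from. The number of arrays limits the precision. All 75 heart arrays were fitted in 12 groups with limma 3.58.1 (lmFit, eBayes with trend) in R 4.3.3. Contrasts were two-sided, with p-values adjusted by Benjamini-Hochberg over all genes and called at an adjusted p under 0.05. Tissue differences were taken within animals. The named genes were the 15 largest called differences in each direction with 1 sign on all days, the PPAR panel, up to 4 members of each of 39 lists with called members of the opposite sign, and up to 6 genes of the day and tissue contrasts. The members and lists were chosen with earlier results of these data known. Same-numbered replicates were not paired (15 pairs, correlations from -0.47 to 0.27). In simulated data of the mean of 3 days the fit recovered 72% of genes changed 1.25-fold and 90% of those changed 1.5-fold, with 10 false calls, and for day 15 it recovered 34% and 74%, with 5 false calls, among 18193 genes. The simulated noise was drawn separately for each gene and array, so variation shared by the genes of an array was left out. The false calls therefore cannot give the error rate in the real hearts. Alternatives covered the fit, scaling, covariates, probe set, days and single arrays.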

Additional observations from a re-analysis of the deposited data

Results flagged for a closer look

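In groups of 5 hearts, 168 were examined for an array far from the other 4, by Dixon's criterion of 0.71, and 25 held one, where chance gives about 1 in 20. Cyp4a14 was far above the others in rosiglitazone day 8 replicate 4 (6.015) and day 15 replicate 4 (5.387). S100a8 was high in WY14643 day 8 replicate 1 (11.04). Arntl was high in rosiglitazone day 4 replicate 2 (8.425) and day 15 replicate 1 (7.602), and the clock score was high in that day 4 array (0.1556). Slc41a3 was low in WY14643 day 4 replicate 2 (9.699) and in rosiglitazone day 4 replicate 1 (8.664).

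Rosiglitazone day 4 replicate 1 also passed this criterion as the highest of its group in the scores of adipocytes (12.43), neutrophils (7.464), monocytes and macrophages (10.8), lymphocytes (9.583), fibroblasts (12.59), skeletal muscle (7.506) and neural and Schwann cells (8.561). Its lung and thymus score, 7.51, was the highest of its group too but did not pass. WY14643 day 4 replicate 2 (10.17) and day 8 replicate 1 (7.725) were the highest of their groups in the neutrophil score. WY14643 day 15 replicate 4 was the highest of its group in the neural and Schwann score (7.809) and the lung and thymus score (6.622). The kidney tubule score was high in WY14643 day 4 replicate 3 (8.859), day 8 replicate 5 (6.098) and day 15 replicate 2 (5.875), and in rosiglitazone day 8 replicate 4 (7.781). The monocyte and macrophage score was high in rosiglitazone day 15 replicate 1 (10.16), and the cardiomyocyte score was low in rosiglitazone day 8 replicate 2 (14.33).

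The difference between the compounds itself differed between days for 8 named genes, by limma's test of day 15 minus day 4: Fsip1 (0.701), Txndc12 (0.51), Prr3 (-1.42), Nova2 (-1.35), Hivep3 (-1.19), Shroom2 (-0.968), Wnk2 (-0.904) and Thbs2 (-0.865). It differed between heart and skeletal muscle for Itgb6 (1.03), Arntl (0.961), Slc41a3 (0.911), Eepd1 (0.514), Stard3 (0.426), Esrra (0.349), Ciart (-0.627) and Myo6 (-0.338). It differed between heart and liver for Obp2a (2.7), Ptgds (2.19), Lrtm1 (1.58), Acadm (-0.42), Angptl4 (-0.73), Ehhadh (-1.44), Cd36 (-1.89), Mogat1 (-2.94), Cox6b2 (-2.97) and Cyp4a31 (-3.01). Values are log2 differences, WY14643 minus rosiglitazone, in the later day or in heart minus the same in the other.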

How the results depend on the processing

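Of the 114 named genes called in the mean of 3 days, 46 lost the call with the 30 arrays alone in the fit, 92 with the clock components, 36 with the neutrophil score, 28, 37 and 82 without day 4, 8 and 15, and 1 to 18 without 1 array. Under the other alternatives 0 to 11 lost it, and 93 could be fitted among the brighter genes. The count of 1114 genes became 415 with the 30 arrays alone in the fit, 2275 with array weights, 1819 for each probe set by itself, 533 with the clock components as covariates and 81 without day 15. Leaving out 1 array gave 662 to 1591, with 662 without WY14643 day 15 replicate 4 and 737 without replicate 1. Day 4 gave 9, 202, 40, 1190 and 115 with the 30 arrays, array weights, the replicate block, the clock components and the neutrophil score, and 31 to 234 without 1 array. Day 8 gave 0 with the 30 arrays and for each probe set, 88 with array weights, 2 with the brighter genes, median centring, the hepatocyte or the adipocyte score, 3 with the clock components, 46 with the neutrophil score, and 0 to 5 without 1 array. Day 15 gave 1392 with the 30 arrays, 4267 for each probe set, 85 with the clock components, and 678 to 3267 without 1 array. Day 15 minus day 4 gave 0, 308, 96, 130 and 51 with the 30 arrays, array weights, the replicate block, the brighter genes and the neutrophil score, 74 without the 2 least correlated arrays, and 2 to 516 without 1 array. Heart minus skeletal muscle gave 0 with the 30 animals, 1 with the replicate block and 3 to 25 without 1 array, and heart minus liver gave 1839 to 2265 without 1 array. The replicate block, which the check of pairing did not bear out, gave 935 genes in the mean of 3 days.

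With the clock components the sign turned for Fabp7 (-0.18), Ctxn3 (0.21), Per2 (0.38), Cdh19 (0.061), Wee1 (0.084), Bhlhe40 (-0.0055), Leo1 (-0.011), Egr2 (-0.18), Herpud1 (0.22), Loxl1 (-0.31), Timp3 (0.049), Nppb (-0.15), Sln (-0.58), Myl7 (-0.83), Myl4 (-0.76), Adh1 (0.069), Cry2 (0.051), Klf9 (0.0435), Mmp14 (-0.0046), Nr1d2 (0.0034), Per1 (0.26), Pik3r1 (0.073), Rora (0.10), Usp2 (0.013) and Zbtb16 (0.12), and for day 15 minus day 4 of Arntl (-0.13). The clock components hold Per2, Bhlhe40, Cry2, Nr1d2, Per1, Rora and Arntl themselves. With the neutrophil score Ngp (-0.18) and Mmp8 (-0.084), which the score holds, turned, and without day 15 Ehhadh (-0.0028). The cause of the other changes was not tested. Leaving out the 2 least correlated arrays, correlating within days and testing each day against vehicle were chosen after seeing the data.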
